A study of Mus musculus with 8 samples.

Results

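CD43, CD45 and CD27 are surface proteins that blood cells display, and each was measured here in the same single cells both as an RNA and as an antibody tag. The 6 measurements described are the RNA counts of Spn (the gene of CD43), Ptprc (the gene of CD45) and Cd27, and the counts of the DNA tags carried by antibodies against CD43, CD45.2 and CD27. They were chosen by name, and are 6 of the 28020 features in the count table, all of them genes but for 6 tags. The cells were CD31+ cells sorted from the aorta-gonad-mesonephros region (AGM) of E10.5 mouse embryos and profiled by CITE-seq, a droplet method that counts RNA molecules (UMIs) and antibody tags per cell. The series holds 15168 cells in 8 libraries, each made from the pooled cells of 2 to 5 embryos. In 5 libraries the labels give the strain C57BL/6 and the genotype WT, and the study applies the name WT to littermates without Cre. In the 3 libraries labelled Meis1-flox/VE-Cre (genotype Meis1-knockout) the floxed Meis1 allele was combined with Cre under the promoter of VE-Cadherin, which is active in endothelium and in the cells that come from it. WT replicate 4 carries no tag counts, so every tag value below comes from 7 libraries, 4 of WT and 3 of Meis1-flox/VE-Cre embryos.

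CD43 (leukosialin) is a long, heavily sialylated mucin of the leukocyte surface that is linked to the actin cytoskeleton through ERM proteins. CD45 is a receptor tyrosine phosphatase present on nucleated hematopoietic cells, where it removes an inhibitory phosphate from Src family kinases. CD27 is a receptor of the TNF receptor family that binds CD70 and signals through TRAF proteins to NF-κB, and it is found on lymphocytes and on subsets of hematopoietic progenitors. During the endothelial-to-hematopoietic transition (EHT), endothelial cells of the dorsal aorta acquire such blood cell proteins one after another, and the stages of emerging hematopoietic stem cells are commonly sorted by which of them is already on the surface.

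The cell types are the study's own clusters, drawn from RNA without the tags: arterial and venous endothelium (aEC, vEC_1 to vEC_4), pre-hemogenic endothelium (pre-HE), cells in EHT, erythro-myeloid progenitors (EMP), Myeloid cells and Megakaryocytes. The paper proposes that the mature blood cells, EMP included, came mostly from the yolk sac, with perhaps a few from EHT. The steps below from EHT to EMP and from EMP to Myeloid cells therefore compare clusters. They need not be stages of one lineage. There were 488 EHT cells, 420 of them in libraries with tags. The labels were checked against marker lists, which separated pre-HE from EHT cells, while the EMP list overlapped between EMP and pre-HE cells. The summed level of 10 endothelial markers was 5478 to 6666 CPM (counts scaled to a common sum of UMIs per library and cell type) across libraries in pre-HE cells and 799.8 to 1406 in EHT cells, and that of 6 EHT markers (among them Runx1, Gfi1 and Spi1) was 19.3 to 61.9 CPM in pre-HE cells and 846.5 to 1023 in EHT cells. In EMP the EHT markers were at 721.1 to 801.9 CPM, close to EHT cells. The 6 EMP markers, at 990.6 to 1687 CPM in EMP, lay above EHT cells (735.8 to 928.1 CPM) but overlapped with pre-HE cells (717.7 to 1288 CPM). EMP held 166.8 to 373.4 CPM of the endothelial markers, less than pre-HE or EHT cells. The libraries held 20484881 to 79429129 RNA UMIs and differed more in their tags. The median number of tag counts per cell, over 5 tags, was 220 in WT 1, 243 in WT 2 and 85 in WT 3, but 26 in WT 5 and 34, 25 and 12 in Meis1-flox/VE-Cre 1 to 3. Tags were therefore compared only within a library, between cell types or as the fold over the aEC and vEC cells of the same library. Across libraries, 33 cell barcodes occurred more than once. Meis1, the gene targeted, was lower in Meis1-flox/VE-Cre EMP (20.9 to 36.4 CPM) than in WT EMP (56.7 to 77.0 CPM), whereas in EHT cells the ranges overlapped (55.5 to 70.9 against 68.0 to 85.8 CPM); 3′ counts can come from outside the deleted exon, so this checks the labels only in part.

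The RNAs of the 3 genes all rose in EHT cells (below), and the sequences around their starts are given to place them in the genome. The windows run from 250 bases before to 50 bases after the RefSeq start in GRCm38.p6, the build also called mm10, and all 3 genes lie on the minus strand. The Spn window is chr7:127137774-127138073, that of Ptprc is chr1:138175256-138175555 (the first of the 2 starts listed) and that of Cd27 is chr6:125236978-125237277. Capitals mark matches on either strand to AGGAAG, the core letters bound by ETS factors such as PU.1. Core letters of RUNX factors (TGTGGT), which include Runx1, were searched in the same way. So were those of GATA factors, taken as AGATAA, and those of MEIS factors, taken as TGACAG. No marked matches overlap in these windows.
Spn: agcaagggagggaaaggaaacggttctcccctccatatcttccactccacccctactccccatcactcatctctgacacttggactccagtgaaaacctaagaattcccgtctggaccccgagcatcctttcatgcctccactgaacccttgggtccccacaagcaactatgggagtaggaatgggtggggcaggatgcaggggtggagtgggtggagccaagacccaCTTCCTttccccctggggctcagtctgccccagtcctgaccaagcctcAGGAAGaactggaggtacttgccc
Ptprc: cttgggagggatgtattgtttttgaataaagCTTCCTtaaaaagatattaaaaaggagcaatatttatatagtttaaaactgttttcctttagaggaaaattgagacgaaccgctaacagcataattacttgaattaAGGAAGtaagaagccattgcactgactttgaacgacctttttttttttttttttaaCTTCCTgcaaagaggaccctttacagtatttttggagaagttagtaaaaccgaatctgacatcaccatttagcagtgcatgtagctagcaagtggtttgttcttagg
Cd27: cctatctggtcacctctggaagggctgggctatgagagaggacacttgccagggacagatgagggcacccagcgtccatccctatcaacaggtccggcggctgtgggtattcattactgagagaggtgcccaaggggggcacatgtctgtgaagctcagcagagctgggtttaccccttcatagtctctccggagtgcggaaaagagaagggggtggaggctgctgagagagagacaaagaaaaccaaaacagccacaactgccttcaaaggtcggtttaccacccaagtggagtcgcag
In the windows printed, the ETS letters were matched 2 times for Spn, 3 times for Ptprc and 0 times for Cd27, and the other letters 0 times. The window of the second Ptprc start (chr1:138175077-138175376, not printed) holds 1 match to the ETS letters and 1 to those of GATA factors. Of 32851 promoter windows of this length, 35.4% hold the ETS letters, 16.8% those of RUNX, 11.2% those of GATA and 19.2% those of MEIS factors, so a match is a description and marks no bound site. The genes span chr7:127123637-127145552 (Spn), chr1:138062859-138175756 (Ptprc) and chr6:125232620-125237136 (Cd27).

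Of the 3 tags, CD43 rose most from endothelium to EHT. The mean CD43 tag count per EHT cell was 511 in WT 1, 533 in WT 2, 353 in WT 3, 160 in WT 5 and 133, 98.4 and 64.1 in Meis1-flox/VE-Cre 1 to 3. In the pre-HE cells of the same libraries it was 51.8, 55.0, 37.4 and 8.31, and 10.8, 5.67 and 4.13. Each library thus held several times more CD43 tag on its EHT cells than on its pre-HE cells, although the tag counts themselves differed widely between libraries. EHT cells exceeded pre-HE cells 12.8-fold (log2 ratio 3.68 ± 0.43, SD, n = 7 libraries, higher in 7 of 7, exact sign-flip permutation test over libraries, two-sided, adjusted p = 0.0208 over 12 tests). A smaller difference preceded it: pre-HE cells carried 1.85-fold more CD43 tag than aEC (log2 ratio 0.89 ± 0.38, higher in 7 of 7 libraries, exact adjusted p = 0.0208). From EHT to EMP the CD43 tag was 1.52-fold higher (0.60 ± 0.63, 6 of 7 libraries, exact adjusted p = 0.0375), and from EMP to Myeloid cells it fell by 0.81 ± 0.18 on the log2 scale in 7 of 7 libraries (exact adjusted p = 0.0208). The EMP difference was not past the threshold once doublets were left out (exact adjusted p = 0.0511) or without any single library other than WT 3 (log2 ratio 0.45 to 0.67), and per RNA UMI it was 0.06 (exact permutation adjusted p = 0.781).

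The CD45 tag showed another order: it was higher in EMP and Myeloid cells than in EHT cells. Over all 7 libraries, EHT cells did not carry detectably more CD45 tag than the endothelium of their library, a reference chosen after seeing the data. The fold over aEC and vEC cells was 1.22, 1.29, 1.61 and 0.937 in WT 1, 2, 3 and 5, and 0.649, 0.552 and 0.758 in Meis1-flox/VE-Cre 1 to 3. It was above 1 in WT 1, 2 and 3, which had the most tag counts per cell, and below 1 in the libraries with fewer. Whether tag depth set this difference was not tested. The mean log2 ratio was -0.09 ± 0.57 (higher in 3 of 7 libraries, exact sign-flip permutation adjusted p = 0.672). The paper reports that cells in EHT upregulated CD43 and CD45 on their surface. Against pre-HE cells alone EHT cells were 1.64-fold higher (0.71 ± 0.59, 7 of 7 libraries, exact adjusted p = 0.0208), but pre-HE cells held less RNA, with median UMIs of 5978 to 15263 per cell against 9277 to 39461 in EHT cells, and per RNA UMI the same ratio was -0.41 (exact adjusted p = 0.146). The centred log ratio, which sets a tag against the other tags of its cell, gave -1.49 with the CD43 tag in its denominator. Pre-HE cells differed from aEC by -0.37 ± 0.55 in CD45 tag (higher in 1 of 7 libraries, exact adjusted p = 0.0511). EMP exceeded EHT cells 2.67-fold (1.42 ± 0.86, 7 of 7 libraries, exact adjusted p = 0.0208), with folds over endothelium of 1.25 to 4.26, although per RNA UMI this gain was 0.88 (exact adjusted p = 0.0536). In Meis1-flox/VE-Cre 1, with the highest fold, 1 EMP cell held 46.6% of the CD45 counts (mean of 52.0 per cell, 28.1 without it), and in Meis1-flox/VE-Cre 2 another held 36.1% (21.5, 13.8 without it); without the 2% of cells highest in the tag the EMP gain was 1.28 (exact permutation adjusted p = 0.0188). Myeloid cells exceeded EMP another 4.30-fold (2.10 ± 0.87, 7 of 7, exact adjusted p = 0.0208) and lay 4.95-fold to 31.1-fold above endothelium. The highest of these, in Meis1-flox/VE-Cre 2, rested on 1 cell that held 68.0% of the CD45 counts of 642 Myeloid cells, without which the mean fell from 222 to 71.2 counts per cell.

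CD27 was gained at EHT to a lesser extent than CD43 and was lower in EMP than in EHT cells. Its tag was 2.35, 2.01, 2.44 and 2.23 times the endothelial level in EHT cells of WT 1, 2, 3 and 5, and 1.09, 2.22 and 1.45 times in Meis1-flox/VE-Cre 1 to 3, so all 7 libraries lay above 1. The mean gain over aEC and vEC cells was 1.90-fold (log2 ratio 0.93 ± 0.43, 7 of 7 libraries, exact sign-flip permutation adjusted p = 0.0234), and 1.51-fold per RNA UMI (0.59 ± 0.46, 6 of 7, exact adjusted p = 0.0703). Over pre-HE cells it was 2.28-fold (1.19 ± 0.47, 7 of 7, exact adjusted p = 0.0208), but 0.07 on the log2 scale per RNA UMI (exact adjusted p = 0.781) and -1.18 as a centred log ratio. From EHT to EMP the CD27 tag fell by 1.05 ± 0.52 on the log2 scale in 7 of 7 libraries (exact adjusted p = 0.0208). Myeloid cells lay 1.5-fold above EMP (0.59 ± 0.34, 7 of 7, exact adjusted p = 0.0208), a step that was not past the threshold after subtraction of the endothelial background (exact adjusted p = 0.167) or per RNA UMI (exact adjusted p = 0.0536). Between aEC and pre-HE cells the CD27 tag differed by -0.03 ± 0.30 (exact adjusted p = 0.844).

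**Figure D1:**
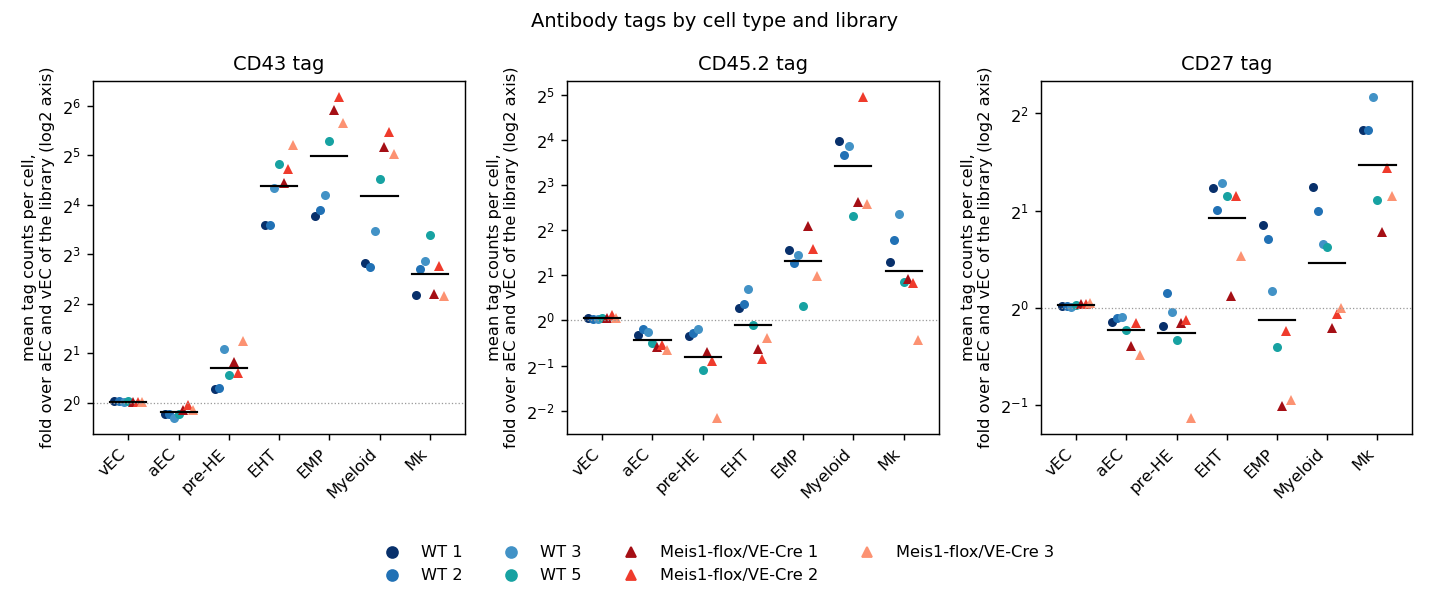
Mean tag counts per cell in each cell type as the fold over the aEC and vEC cells of the same library (log2 axis), for CD43, CD45.2 and CD27; points are the 7 libraries with tags and the black line is their geometric mean. CD43 is 12-fold to 37.0-fold above endothelium in EHT cells, CD45.2 is 0.552-fold to 1.61-fold and reaches 4.95-fold to 31.1-fold in Myeloid cells, and CD27 is 1.09-fold to 2.44-fold in EHT cells.

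Counted cell by cell, the same order held within EHT. A cell was called positive for a tag when it exceeded the 99th percentile of the aEC and vEC cells of its own library, so about 1% of endothelial cells are positive by construction. By this rule 86.4% ± 7.4 of EHT cells were CD43+ (SD, n = 7 libraries, 77.5% to 100.0%), 13.2% ± 10.5 were CD27+ (0% to 29.7%) and 1.94% ± 2.22 were CD45+ (0% to 6.45%). The CD43+ share exceeded the CD45+ share by 84.4 ± 6.4 percentage points and the CD27+ share by 73.2 ± 8.9 points, each in 7 of 7 libraries (exact sign-flip permutation test, adjusted p = 0.0234). CD27+ exceeded CD45+ by 11.2 ± 9.4 points in 6 of 7 libraries (exact adjusted p = 0.0312), a difference that was 2.38 points with a stricter percentile (exact adjusted p = 0.25) and that missed the threshold without any single library other than Meis1-flox/VE-Cre 1 (exact permutation adjusted p = 0.0625, 8.41 to 12.3 points). The antibodies differ in brightness and background, and the order is therefore one of detection. The CD27+ share moved with tag depth: it was 29.7%, 17.8% and 22.6% in WT 1, 2 and 3, and 0% to 7.84% in the 4 libraries with fewer tag counts.

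Pooled over the tagged libraries, 307 of 420 EHT cells (73.1%) were positive for CD43 alone, 44 (10.5%) for CD43 and CD27, 4 for all 3 and 2 for CD43 and CD45. The remaining cells were 62 (14.8%) with none of the tags and 1 with CD27 alone. A CD45+ cell without CD43 was not seen in EHT, where 6 cells were CD45+ in all, while 48 of the 49 CD27+ cells were also CD43+. Pre-HE cells held 11 CD43+ cells of 161 and 0 of 161 for CD45 and for CD27, which allows a share of up to 1.86% (a count of 0 with a limit of 3 counts, counting error only). In EMP, 552 of 644 cells (85.7%) were CD43+ alone and 59 (9.16%) were CD43+ CD45+, with 18 CD27+ cells. Pooled in this way, Myeloid cells were the most mixed: 881 of 2219 (39.7%) were CD43+ CD45+, 629 (28.3%) CD43+ alone, 314 (14.2%) CD45+ alone and 125 (5.63%) positive for all 3. The mixture differed with tag depth. CD43+ alone cells were 2.84%, 6.76% and 17.1% in WT 1, 2 and 3, and 35.2% to 44.8% in WT 5 and Meis1-flox/VE-Cre 1 to 3, which had fewer tag counts. In those libraries 21.3% to 56.7% of Myeloid cells were CD45+, less than in each of WT 1, 2 and 3. Whether CD45+ cells were missed at low tag depth was not tested. CD27 in CD45+ against CD45- EHT cells could not be compared, as no library held 5 CD45+ EHT cells. With positives set at the 95th percentile, 3 libraries could be used and the CD27 tag was 1.10 ± 0.14 higher on the log2 scale in the CD45+ cells, in 3 of 3 libraries (exact sign-flip permutation p = 0.25, the smallest that 3 libraries allow).

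**Figure D2:**
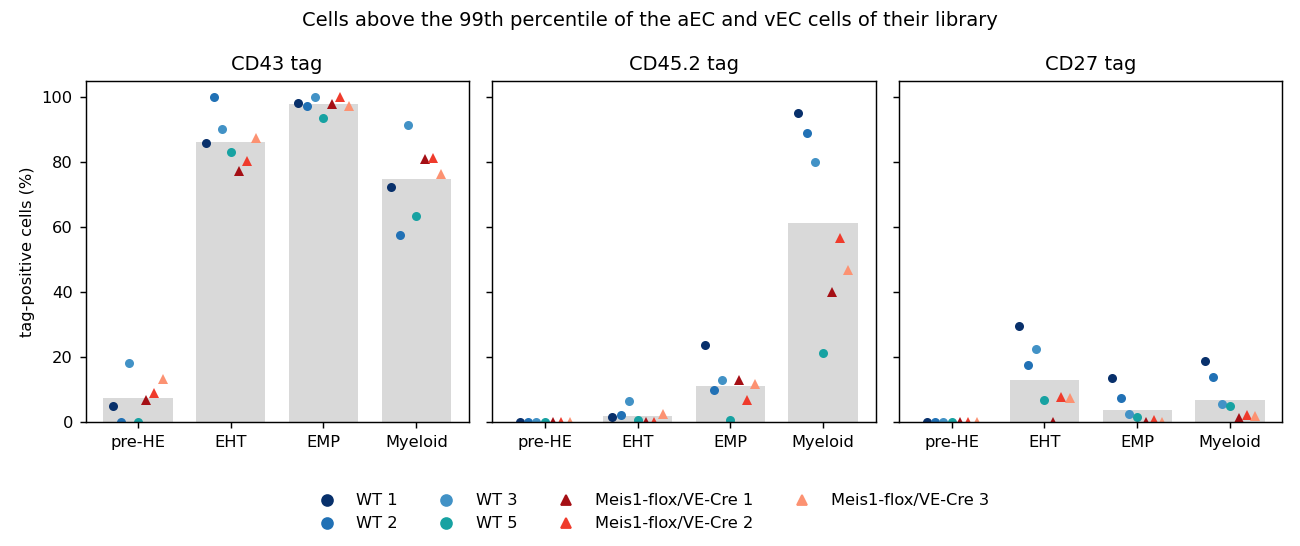
Share of cells positive for each tag (percent of cells above the 99th percentile of endothelial cells of the same library) in pre-HE, EHT, EMP and Myeloid cells; bars are means of 7 libraries and points single libraries. In EHT cells the mean shares are 86.4% for CD43, 13.2% for CD27 and 1.94% for CD45.

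RNA of the 3 genes was present in EHT cells and near 0 in pre-HE cells for Spn and Ptprc. Ptprc RNA was thus measured in EHT cells whose CD45 tag, over the tagged libraries together, was not detectably above that of endothelium. Ptprc was 38.6, 33.2, 24.2, 25.4 and 41.3 CPM in EHT cells of WT 1 to 5 and 48.4, 33.3 and 54.1 CPM in those of Meis1-flox/VE-Cre 1 to 3. In pre-HE cells it had 0 counts in all 8 libraries. Pooled over WT, 303 counts in EHT cells against 0 in pre-HE cells put Ptprc at least 25.4-fold higher in EHT (against a floor of 3 counts over the group, 1.29 CPM). Spn was 15 to 37.5 CPM in EHT cells, and a single count was found in pre-HE cells (WT 4); the pooled WT ratio was 56.1 with a 95% counting interval of 9.97 to 2226. Cd27 differed from both in that it was already detected in pre-HE cells, at 7.50 ± 5.46 CPM (SD, n = 8 libraries, 0 to 14.4), and in aEC, at 5.32 ± 2.72 CPM (1.36 to 9.14). In EHT cells Cd27 was 20.1 ± 7.33 CPM (11.6 to 33.2), or 3.05 times the pre-HE level pooled over WT (95% counting interval 1.88 to 5.24). These intervals and floors cover counting error only.

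**Figure D3:**
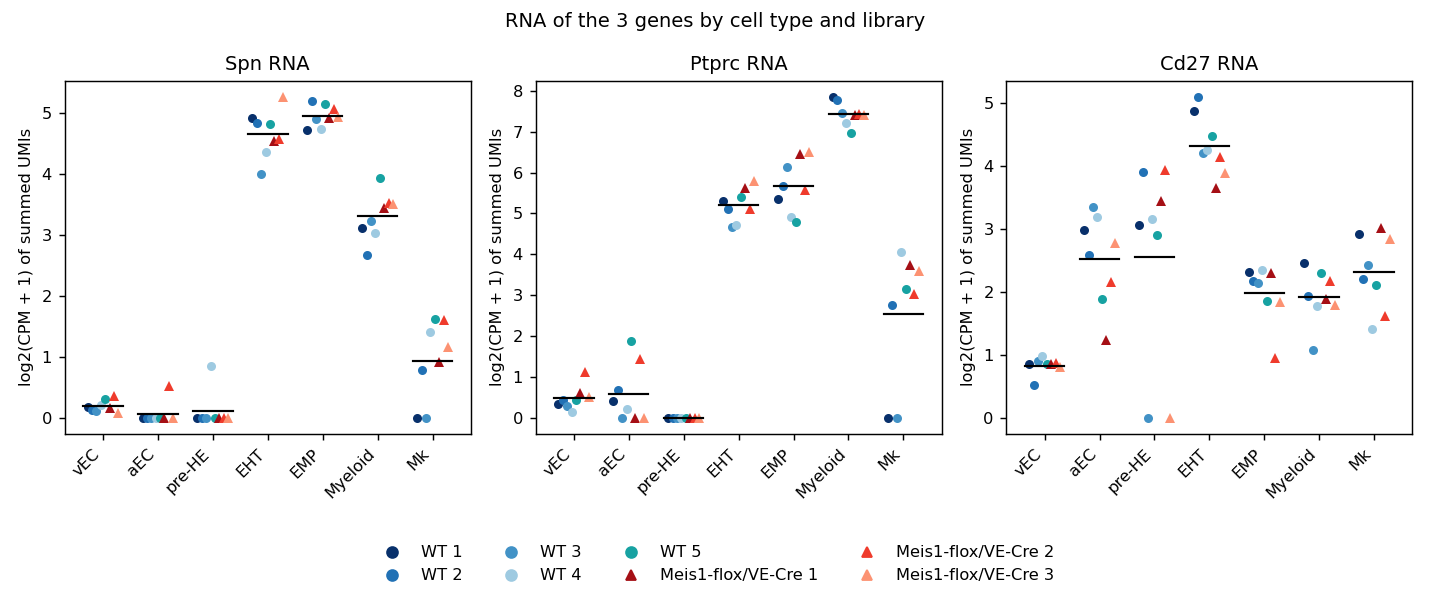
RNA level of Spn, Ptprc and Cd27 in each cell type as log2(CPM + 1) of counts summed per library; points are the 8 libraries and the line their mean. Spn and Cd27 are at 25.2 and 20.1 CPM on average in EHT cells, and Ptprc rises from 37.3 CPM in EHT cells to 54.9 in EMP and 176 in Myeloid cells.

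Tested across all genes in the 5 WT libraries (edgeR quasi-likelihood test, library as block), all 3 genes were called higher in EHT than in pre-HE cells (adjusted p = 4.96e-09 for Spn, 5.66e-10 for Ptprc, and 0.000244 for Cd27 with a log2 fold change of 1.55 ± 0.34, SE). The background is high, as 31.6% of the 8467 genes tested were called higher in this step, and the clusters were drawn from the same RNA. From EHT to EMP, where 28.8% of 9252 genes were called lower and 27.6% higher, Cd27 fell by 2.61 ± 0.21 on the log2 scale (edgeR adjusted p = 9.58e-08), Spn rose by 0.42 ± 0.14 (edgeR adjusted p = 0.0239, but 0.112 with DESeq2) and Ptprc had a log2 fold change of 0.40 ± 0.20 (edgeR adjusted p = 0.104). From EMP to Myeloid cells, with 32.1% of 10267 genes called higher and 29.0% lower, Ptprc rose by 2.17 ± 0.13 (edgeR adjusted p = 2.08e-07), Spn fell by 1.87 ± 0.18 (edgeR adjusted p = 8.39e-06) and Cd27 had a log2 fold change of -0.19 ± 0.27 (edgeR adjusted p = 0.583). RNA and tag thus fell together for Cd27 from EHT to EMP and for Spn from EMP to Myeloid cells, and rose together for Ptprc from EMP to Myeloid cells. From EMP to Myeloid cells the CD27 tag rose per cell whereas its RNA was not called.

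Within EHT, the tags were followed along the loss of the endothelial program. EHT cells of each library were divided into tertiles by the share of their UMIs in 10 endothelial markers, a list that holds neither the tags nor the 3 genes, although a tertile is a range and not a stage: 114 EHT cells lay within 10% of a boundary. The CD43 tag was 2.50-fold higher in the tertile with the lowest endothelial share than in that with the highest (log2 ratio 1.32 ± 0.71, 7 of 7 libraries, exact sign-flip permutation adjusted p = 0.0234). CD27 was 1.98-fold higher (0.99 ± 0.62, 7 of 7, exact adjusted p = 0.0234). CD45 differed by -0.14 ± 0.78 (higher in 3 of 7, exact adjusted p = 0.672). The CD43+ share went from 66.9% over 92.8% to 99.2% as the endothelial share decreased, the CD27+ share from 4.38% over 13.4% to 21.7%, and the CD45+ share from 2.05% over 1.66% to 2.11% (means of 7 libraries). Median UMIs per cell moved the same way, from 18858 over 23740 to 26833, and per RNA UMI the ratios were 0.94 for CD43 and 0.61 for CD27 (exact permutation adjusted p = 0.0938 for each).

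In contrast to its tag, Ptprc RNA was higher in EHT cells that held less endothelial RNA, at 18.4 ± 7.54 CPM in the tertile with the highest endothelial share, 33.2 ± 13.2 in the middle and 57.0 ± 25.6 in the lowest (SD, n = 8 libraries). Spn was 10.4 ± 8.91, 32.7 ± 11.8 and 29.5 ± 9.60 CPM, and so reached its level by the middle tertile. Cd27 was 12.6 ± 11, 20.8 ± 8.14 and 25.7 ± 9.98 CPM, with overlap between all tertiles. These RNA values are a description, since the same RNA gave the division and the cluster.

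**Figure D4:**
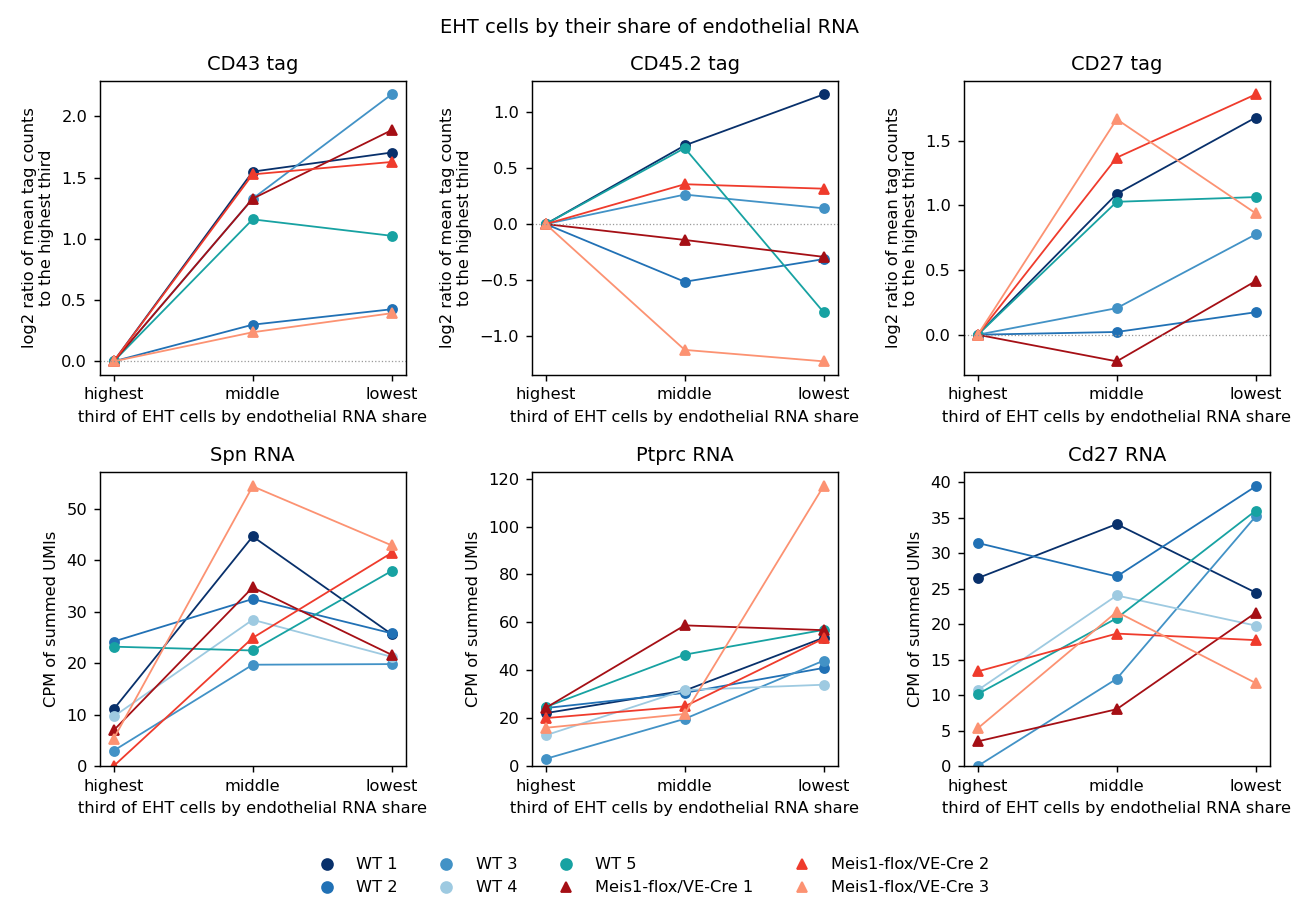
EHT cells divided within each library into tertiles by their share of endothelial UMIs (highest, middle, lowest), with the tags and the RNA of the 3 genes; points are libraries (7 for tags, 8 for RNA). The CD43+ share rises from 66.9% to 99.2% on average and the CD45+ share stays between 1.66% and 2.11%, while Ptprc RNA goes from 18.4 to 57.0 CPM.

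Tag and RNA were also set against each other cell by cell. The Spearman correlation between Spn UMIs and CD43 tag had a median over libraries of 0.22 in EHT cells (0.11 to 0.48), 0.24 in EMP (0.04 to 0.38) and 0.42 in Myeloid cells (0.22 to 0.48). For Cd27 and its tag it was 0.19 in EHT cells (-0.17 to 0.44), and 0.04 and 0.08 in EMP and Myeloid cells. For Ptprc and the CD45 tag it was 0.03 in EHT cells (-0.02 to 0.50), 0.21 in EMP and 0.04 in Myeloid cells. The cells share a library and differ in depth, and the CD43 tag by itself correlated with the RNA UMIs of an EHT cell at 0.28 to 0.78. After thinning each cell to 5000 UMIs, which left out 3 of 488 EHT cells and 80 of 10929 aEC and vEC cells, none of the 8 comparisons of cells with and without a UMI of the gene passed the test (exact permutation adjusted p = 0.333 to 0.891, and 0 of 8 at an unadjusted p below 0.05), but 4 of them rested on 3 to 5 libraries, where the exact test cannot reach 0.05. Without thinning, 4 of the 8 passed: Spn and CD43 in EHT cells (0.78), EMP (0.43) and Myeloid cells (1.37), and Ptprc and CD45 in EMP (0.97; exact permutation adjusted p = 0.0352 for each). Of the thinned values, Myeloid cells with a Spn UMI had 1.72-fold the CD43 tag of those without (log2 ratio 0.78 ± 0.35, higher in 5 of 5 libraries, where the smallest p was 0.0625 by the exact permutation test). In EHT cells this ratio was 0.41 ± 0.56 for Spn and CD43 (4 of 5), 0.37 ± 0.84 for Ptprc and CD45 (3 of 6) and 0.35 ± 0.29 for Cd27 and CD27 (3 of 3). Other tags moved as much in some of these splits. EHT cells with a Spn UMI had mean ratios of 0.43 for the CD117 tag and 0.36 for CD27. Myeloid cells with a Cd27 UMI had 0.93 for CD43 against 0.47 for CD27. For Ptprc and Cd27 in EHT cells and Spn in Myeloid cells, the matching tag had the highest mean ratio of the tags. Without the 2% of cells highest in the tag, these ratios were 0.09, 0.06 and 0.64, so the EHT values rested largely on few cells. In WT 5, 1 EHT cell held 26.8% of the CD45 counts. The thinned share of EHT cells with a UMI was 9.13% for Spn, 17.4% for Ptprc and 11.3% for Cd27, against 0.0861%, 0.260% and 0.635% in aEC and vEC cells, and 37.4%, 38.8% and 31.8% without thinning. Most CD43+ EHT cells therefore had no Spn UMI at the thinned depth.

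Myeloid cells differed among themselves in opposite directions for CD43 and CD45. They were divided by whether a cell held more UMIs of 7 macrophage markers (such as C1qa and Mrc1) or of 10 granule markers (such as Mpo and Elane), which gave 1636 and 742 cells in the 8 libraries, and this division of a score is a range and not a pair of cell types. The CD45 tag was 2.33-fold higher on the macrophage side (log2 ratio 1.22 ± 0.93, 7 of 7 libraries, exact sign-flip permutation adjusted p = 0.0234). In Meis1-flox/VE-Cre 2, where 1 Myeloid cell held 68.0% of the CD45 counts, the log2 ratio was 3.06, against 0.46 to 1.84 in the other libraries. Without the 2% of cells highest in the tag the mean was 0.92 (exact permutation adjusted p = 0.0156). CD43 fell by 0.74 ± 0.35 on the log2 scale (lower in 7 of 7 libraries, exact adjusted p = 0.0234). CD27 was 1.51-fold higher, in 5 of 7 libraries (0.59 ± 0.59, exact adjusted p = 0.0781). RNA of Ptprc and Spn lay in the same directions: Ptprc was 192 ± 35.9 CPM on the macrophage side and 135 ± 22.3 on the granule side, and Spn 6.11 ± 2.99 and 15.2 ± 1.88 (SD, n = 8). Cd27 was 3.16 ± 0.99 and 2.48 ± 1.64 CPM, with no common direction. It was lower on the macrophage side in WT 1, WT 4, WT 5 and Meis1-flox/VE-Cre 3 and higher in the other libraries. The Spn ranges did not overlap (2.80 to 12.3 against 12.6 to 17.6 CPM), whereas those of Cd27 did. How many of all genes separate in this way was not counted. These RNA values are a description, since RNA of the same cells gave the division.

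**Figure D5:**
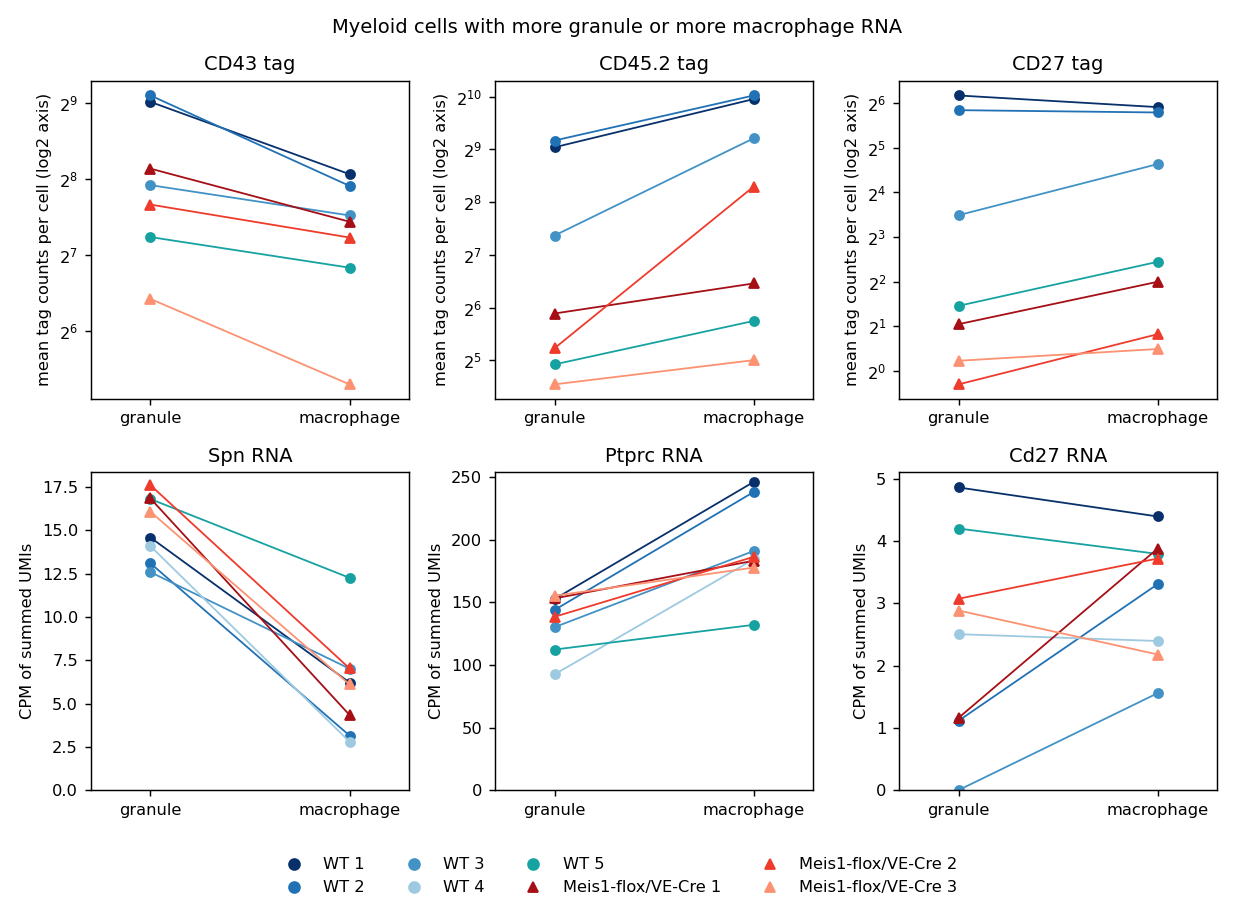
Tags and RNA of the 3 members on the macrophage and granule sides of Myeloid cells, with one point per library (7 for tags, 8 for RNA) and lines joining the sides of a library. CD45 and Ptprc are higher on the macrophage side (192 against 135 CPM for Ptprc), and CD43 and Spn on the granule side (15.2 against 6.11 CPM for Spn).

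The tags of Megakaryocytes, as the fold over endothelium, were 6.39 ± 2.19 times for CD43, 2.47 ± 1.44 times for CD45 and 2.91 ± 0.99 times for CD27 (SD, n = 7 libraries, not tested), with CD45 at 0.743 in Meis1-flox/VE-Cre 3. They had little Spn RNA (1.08 ± 0.83 CPM) and 7.50 ± 5.60 CPM of Ptprc (SD, n = 8). The order of Spn levels was EMP, EHT, Myeloid, Megakaryocytes and then endothelium, the first 2 of which overlapped (25.4 to 35.9 against 15 to 37.5 CPM). For Ptprc it was Myeloid, EMP, EHT and Megakaryocytes, with EMP (26.7 to 90.0 CPM) and EHT cells (24.2 to 54.1 CPM) overlapping. For Cd27 it was EHT, pre-HE, aEC, Megakaryocytes, EMP and Myeloid, where each overlapped its neighbour in library range, EHT (11.6 to 33.2 CPM) and pre-HE (0 to 14.4 CPM) included. The vEC clusters lay near 0, at 0.14, 0.42 and 0.78 CPM for Spn, Ptprc and Cd27 over vEC_1 to vEC_4.

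The comparison of genotypes asked whether loss of endothelial Meis1 altered the members in the cells that did form. No tag passed the test, and 1 of the 9 comparisons had an unadjusted exact p below 0.05. The smallest exact permutation p for 4 against 3 libraries is 0.0286, so no single comparison could pass by itself after adjustment over 9 tests. The absence of a call therefore does not show that the tags were equal. The fold of the CD43 tag over endothelium in EHT cells was 12, 12, 20.1 and 28.4 in WT 1, 2, 3 and 5 and 21.8, 26.3 and 37.0 in Meis1-flox/VE-Cre, and the groups overlapped (log2 difference 0.71, exact permutation test of 4 against 3 libraries, p = 0.171, adjusted p = 0.220 over 9 tests). In EMP and Myeloid cells the CD43 difference was 1.63 and 1.83 (exact p = 0.0571, adjusted p = 0.103 for each). There the CD43 folds of the groups did not overlap. In EMP they were 13.7 to 39.3 in WT and 50.1 to 72.2 in Meis1-flox/VE-Cre. In Myeloid cells they were 6.67 to 22.8 in WT and 32.5 to 44.4 in Meis1-flox/VE-Cre. The CD27 tag differed by -0.57 in EHT cells (exact p = 0.0571), by -1.06 in EMP (exact p = 0.0857) and by -0.98 in Myeloid cells (exact p = 0.0286, the smallest that 4 against 3 allow, adjusted p = 0.103). In Myeloid cells the CD27 folds of the groups did not overlap, at 1.55 to 2.37 in WT and 0.863 to 0.998 in Meis1-flox/VE-Cre. For CD45 the differences were -0.94, 0.40 and -0.07 in EHT, EMP and Myeloid cells (exact p = 0.0571, 0.4 and 0.943), and the CD45 folds given above for EHT cells did not overlap between the groups. The EMP and Myeloid values include the single cells named above that held much of the CD45 counts of their library. Without the 2% of cells highest in the tag, the differences were -0.90, -0.13 and -0.71 (exact permutation p = 0.0857, 0.771 and 0.171). The libraries with few tag counts were all 3 Meis1-flox/VE-Cre libraries and WT 5, so tag depth and genotype largely cannot be told apart: against WT 5 alone the CD43 difference in EHT cells was -0.04, in EMP 0.62 and in Myeloid cells 0.71. For CD45 these values were -0.53, 1.23 and 1.08, and for CD27 -0.55, -0.32 and -0.72.

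RNA of the members was not called between genotypes either (edgeR, 5 WT against 3 Meis1-flox/VE-Cre libraries, 0 of 8 comparisons, 3 of them at an unadjusted p below 0.05, and 1 of 8 called with DESeq2), while 0.127% of genes were called in EHT cells, 4.74% in EMP (2.68% higher) and 3.26% in Myeloid cells (1.48% higher). Ptprc had a log2 fold change of 0.54 ± 0.22 in EHT cells (SE, edgeR adjusted p = 0.449) and 0.88 ± 0.29 in EMP (edgeR adjusted p = 0.145, but 0.064 with DESeq2). Cd27 had -0.76 ± 0.30 in EHT cells (edgeR adjusted p = 0.432), with 11.6 to 16.7 CPM in Meis1-flox/VE-Cre and 17.6 to 33.2 CPM in WT. Cd27 in EMP was below the filter on low counts. Spn differed by 0.24 ± 0.27 in EHT cells and 0.08 ± 0.16 in EMP (edgeR adjusted p = 0.833 and 0.845).

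Genes that work with the members were read from 3 lists. Of the list of CD45 substrates and signalling partners, 11 of 18 genes were tested from pre-HE to EHT, and 6 were called higher and 4 lower, where 31.6% of all genes tested were called higher and 30.0% lower. Among these were Ptprcap (encoding the CD45-associated protein, 221 WT counts in EHT cells against 0 in pre-HE cells, at least 18.5-fold higher), Ptpn6 (the phosphatase SHP-1, log2 fold change 4.05 ± 0.27) and Yes1 (a Src family kinase, -1.46 ± 0.21). The list's median was 0.31 against 0.04 over all genes tested. From EHT to EMP 5 of 14 were higher and 6 lower (27.6% and 28.8% of all genes), with Lgals1 (galectin-1, a lectin that binds CD45) at 2.65 ± 0.16, Ptprcap at 2.60 ± 0.16 and Src at -2.38 ± 0.30 (median -0.08 against -0.01). From EMP to Myeloid cells 13 of 15 were higher and 1 lower (32.1% and 29.0% of all genes, median 0.72 against 0.02), and the Src family kinase Lyn (1.52 ± 0.06) rose together with Ptprc while Ptprcap fell by 2.40 ± 0.14 on the log2 scale. All are edgeR calls at an adjusted p below 0.1.

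The list around CD43 holds enzymes of O-glycosylation, ERM linkers and other sialomucins, and its genes went against Spn at EHT: 0 of 13 tested were higher and 8 lower from pre-HE to EHT, with a median of -0.65 against 0.04 over all genes. For comparison, 31.6% of all genes were called higher and 30.0% lower in this step. Endothelial sialomucins were among them, such as Emcn (endomucin, -3.27 ± 0.13) and Podxl (podocalyxin, -1.89 ± 0.23), and so was the ERM linker Rdx (radixin, -1.44 ± 0.11). Emcn is also one of the 10 endothelial markers used above. From EHT to EMP 6 of 14 were higher and 6 lower (27.6% and 28.8% of all genes, median -0.14 against -0.01), with Selplg (PSGL-1, the P-selectin ligand of leukocytes) at 1.96 ± 0.19 and Emcn and Cd34 at -2.68 ± 0.23 and -1.58 ± 0.08. From EMP to Myeloid cells 7 of 16 were higher and 6 lower (32.1% and 29.0% of all genes, median 0.11 against 0.02), among them C1galt1c1 (the chaperone of the core 1 O-glycan enzyme, 2.01 ± 0.13), Galnt3 (1.66 ± 0.43) and Podxl (-1.67 ± 0.36).

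The third list holds the CD27 ligand and signalling genes. From pre-HE to EHT, where 31.6% of all genes were called higher and 30.0% lower, 1 of 8 was higher (Siva1, a death domain protein that binds CD27, 1.09 ± 0.12) and 1 lower (Birc2, -0.62 ± 0.26), with a median of 0.03 against 0.04. From EHT to EMP, against 27.6% higher and 28.8% lower over all genes, 0 of 9 were higher and 2 lower (Nfkb1 -0.37 ± 0.11, Siva1 -0.24 ± 0.04, list median -0.12 against -0.01), and from EMP to Myeloid cells 5 of 12 were higher, a share near the 32.1% over all genes, and 1 lower, with Relb at 1.2 ± 0.26, Traf5 at 1.18 ± 0.27 and Nfkb2 at 1.16 ± 0.22 (median 0.19 against 0.02). Between genotypes no gene of the 3 lists was called in EHT cells by edgeR, and 2 of 34 tested had an unadjusted p below 0.05. In EMP, Lgals1 (1.11 ± 0.26, edgeR adjusted p = 0.0507) was higher in Meis1-flox/VE-Cre, and in Myeloid cells Lgals1 (0.96 ± 0.22) and C1galt1c1 (0.94 ± 0.14) were.

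The genes whose levels were most like those of each member were found by Pearson's r of log2(CPM + 1) over 79 sums of 8 libraries and 10 cell types, among 7773 genes. For Spn these were Tespa1 (0.97), Rnase6 (0.97) and Myb (0.96), which were likewise highest in EMP on average. For Ptprc they were Arhgap30 (0.98), Fmnl1 (0.97) and Fcgr3 (0.97), each highest in Myeloid cells. Cd27 had no match as close: the nearest were Card19 (0.74), Fjx1 (0.71) and Ninj1 (0.71), of which Fjx1 was highest in pre-HE cells and the other two in EHT cells. The sums share libraries and cell types, and the coefficients are a description.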

How the data were processed

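The authors sorted CD31+ cells from E10.5 AGM, stained them with tagged antibodies and made 10x Chromium 3′ v3 libraries. The submitters' processing notes name Cell Ranger 3.0.2 and mm10, and the authors filtered cells on genes detected (the fewest in any cell is 2001) and mitochondrial content, and clustered integrated RNA. The deposited values are raw counts of UMIs and of tags per cell, neither normalized nor pooled. Groups came from the labels, and cell types from the authors' annotation. Doublets (83 cells called with Scrublet in scanpy 1.11.5) were kept in the main values. The members and lists were chosen with earlier results of these data known.

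Tags were averaged per cell type and library and compared as log2 ratios within libraries with exact sign-flip permutation tests (smallest p 0.0156 for 7 libraries), and between genotypes with exact permutation of 4 against 3 libraries, two-sided, Benjamini-Hochberg adjusted within each family, threshold 0.05. Libraries of pooled embryos are the replicates. RNA counts were summed per library and cell type (at least 10 cells) and tested with edgeR 4.0.16 (quasi-likelihood, TMM, filterByExpr, adjusted p below 0.1 over all genes) in R 4.3.3, with DESeq2 1.42.0 as an alternative. This test was checked on simulated data. Named list genes are at most 3 called genes per list and step with the largest absolute log2 fold change, and the nearest patterns are the 3 genes of highest Pearson's r. Some genes that this rule names are not reported here. Other alternatives were left-out libraries, other scales, percentiles, thinning depths and filters. Tag counts per RNA UMI, the aEC and vEC reference for EHT cells and leaving out the 2% of cells highest in a tag were chosen after seeing the data.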

Additional observations from a re-analysis of the deposited data

Results flagged for a closer look

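In 53 groups of 4 to 10 libraries, 6 values lay further from the rest of their group than Dixon's test allows, where chance flags about 1 in 20 groups. In Meis1-flox/VE-Cre 3, the library with the fewest tag counts per cell, the log2 ratio of pre-HE over aEC was -1.51 for the CD45 tag (the other 6 libraries -0.60 to 0.07) and -0.64 for the CD27 tag (the others -0.10 to 0.26), from 15 pre-HE cells. In WT 2 the CD43+ share of EHT cells exceeded the CD45+ share by 97.8 percentage points, against 77.5 to 85 in the other libraries, since all 45 EHT cells of WT 2 were CD43+.

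The CD45 tag ratio of Myeloid cells with over those without a Ptprc UMI was 2.70 on the log2 scale in Meis1-flox/VE-Cre 2 and -0.16 to 0.14 in the other 6 libraries. This library holds the Myeloid cell with 96830 of its 142500 CD45 counts, and without the library the mean ratio was -0.06. Among WT libraries, Ptprc in aEC was 2.70 CPM in WT 5 (6 counts) and 0 to 0.59 CPM in the others. Spn in pre-HE cells was 0.79 CPM in WT 4, which was 1 count, and 0 in the other WT libraries.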

How the results depend on the processing

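Alternatives not named here kept direction and side of the threshold, except that Birc2 from pre-HE to EHT (4 alternatives, -0.61 to -0.37) and Nfkb1 from EHT to EMP (DESeq2, -0.35) were no longer called. All values are log2 ratios unless called counts or points, and the cause of a change was not tested where none is given. Per RNA UMI, the CD43 tag from EHT to EMP was 0.059, the CD45 tag 0.12 from aEC to pre-HE, -0.41 from pre-HE to EHT and 0.88 from EHT to EMP, and the CD27 tag 0.46 from aEC to pre-HE, 0.068 from pre-HE to EHT and 0.48 from EMP to Myeloid cells. Within EHT (lowest over highest endothelial share) it gave 0.94 for CD43 and 0.61 for CD27, and on the macrophage side of Myeloid cells 0.79 for CD27, now past the threshold. With aEC and vEC cells as the reference, EHT cells had -0.091 for CD45, -0.43 per RNA UMI, and 0.59 for CD27 per RNA UMI. As a centred log ratio, CD45 was -0.21 from aEC to pre-HE (past the threshold) and -1.49 from pre-HE to EHT, CD27 -1.18 from pre-HE to EHT, CD45 -0.70 and CD27 -0.079 along the endothelial share, CD27 -0.24 in Myeloid cells with against without a Cd27 UMI, CD27 0.59 on the macrophage side (past the threshold) and CD45 by genotype in EMP -0.28. With endothelial background subtracted, CD45 was 0.00 from aEC to pre-HE, 0.75 from pre-HE to EHT (not past the threshold) and 0.13 along the endothelial share, and CD27 0.021 from aEC to pre-HE and 0.87 from EMP to Myeloid cells (not past it).

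Without doublets, the CD43 tag from EHT to EMP was 0.59 and Ptprc by genotype in Myeloid cells 0.018. At the stricter percentile, CD27+ exceeded CD45+ by 2.38 points. Without thinning, cells with a UMI of the gene were past the threshold for Spn and CD43 in EHT (0.78), EMP (0.43) and Myeloid cells (1.37) and for Ptprc and CD45 in EMP (0.97). Thinned to 3000 UMIs, Ptprc and CD45 in EHT cells gave -0.24. Without the cells highest in a tag, CD45 by genotype in EMP was -0.13, CD27 in Myeloid cells with against without a Cd27 UMI -0.15 and CD27 on the macrophage side 0.75, past the threshold. For RNA, Ptprc from EHT to EMP was 0.42 with RLE size factors and 0.45 without the filter on low counts, both past the threshold, and Spn 0.46 with DESeq2, not past it. Ptprc by genotype in EMP was 0.87 with DESeq2 and 0.86 without the filter, both past the threshold, and in Myeloid cells without the filter 0.00445. Against WT 5 as the only WT library, the genotype difference was -0.037 (EHT) for the CD43 tag, 1.08 (Myeloid) for the CD45 tag, -0.00112 (EHT), -0.15 (EMP) and -0.40 (Myeloid) for Spn and 0.54 (Myeloid) for Ptprc.

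The genes called between genotypes were 11 in EHT cells, 435 in EMP and 374 in Myeloid cells. In EHT cells the count was 43 with DESeq2, 237 without the filter, 6 without doublets and 6 against WT 5 alone. In EMP it was 50 against WT 5 alone, and in Myeloid cells 584 with DESeq2. Leaving out 1 library moved these counts to 0 to 261, 44 to 828 and 44 to 1421, the highest each without WT 5.

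Replicate numbers are shared between the genotypes but do not pair the samples: deviations of samples of the same number correlated at -0.12, 0.30 and -0.19 over 9 tag levels, and at -0.18 to 0.16 over RNA. With the replicate number as a block, 450, 953 and 1333 genes were called in EHT, EMP and Myeloid cells. The block gave 0.65 for Spn (adjusted p = 0.0889, edgeR) and 0.043 for Cd27 in Myeloid cells. No tag could be called with the block, since a sign-flip test on 3 pairs cannot reach the threshold of 0.05. The CD43 tag was then at 0.96, 1.96 and 2.21 in EHT, EMP and Myeloid cells.

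With 1 library left out at a time, these ranges included a change of sign or of side: CD43 tag from EHT to EMP 0.45 to 0.72, CD45 tag from aEC to pre-HE -0.44 to -0.18 (past the threshold without WT 3), CD27 tag from aEC to pre-HE -0.076 to 0.074, CD27+ minus CD45+ share 8.41 to 13.1 points, CD45 tag along the endothelial share -0.36 to 0.037, CD45 tag by genotype in Myeloid cells -0.85 to 0.33, and CD45 tag in Myeloid cells with against without a Ptprc UMI -0.059 to 0.42. For RNA they were Ptprc from EHT to EMP 0.17 to 0.62 (past the threshold without WT 5), Ptprc by genotype in EMP 0.70 to 1.12 (without WT 3) and in Myeloid cells -0.11 to 0.078, Spn by genotype in EHT cells -0.082 to 0.45 and in Myeloid cells 0.20 to 0.65 (past the threshold without WT 5), and Cd27 by genotype in Myeloid cells -0.23 to 0.094. Tag depth differed between libraries, with a median of 12 to 34 tag counts per cell in 4 of them and 85 to 243 in the other 3.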
